A study of Gossypium hirsutum with 6 samples.

Results

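The gene Gh_A10G1502 of chromosome A10 was the only pectinesterase gene among the cell wall organization genes that the study drew as lower in the fiberless mutant, and it is 1 of 65894 genes with deposited expression values. It was chosen for that difference in these same libraries, so its difference between lines is given below as a description, without a test. RNA came from ovules of field-grown upland cotton, *Gossypium hirsutum*, in 3 libraries of *Xu142fl* (Xuzhou142fl, a mutant that forms no fiber) and 3 libraries of Xu142 (the Xuzhou142 wild type, which does). Each library was made from a mix of ovules collected at -3 and -1 DPA (days post anthesis), and the share of each stage was not stated. The replicates were described as biological, and no treatment was applied. In whole ovules, fewer cells that express a gene and less RNA of it in each cell cannot be told apart, and fiber initials are only some of the cells of an ovule.

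Pectinesterase, also called pectin methylesterase, is an enzyme of the plant cell wall. It removes methyl ester groups from homogalacturonan, the main backbone of pectin. The freed carboxyl groups can bind calcium and crosslink pectin chains, which stiffens a wall, and they also open the chain to pectin-degrading enzymes, which loosens it. Cotton fibers are single epidermal cells of the ovule, and the epidermal cell wall has to yield before a fiber initial can bulge out. The other cell wall genes considered here encode alpha-expansins (EXPA), wall proteins without known enzymatic activity that let cellulose fibrils slide past each other as a cell expands.

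Values were deposited as FPKM (read fragments scaled by the length of the transcript and by the mapped fragments of the library), which can thus be compared between genes. Summed over all genes, FPKM came to 804997 to 844877 per library, and the median gene had between 3.38 and 4.01 FPKM. No read counts were analysed, so the depth behind the value of a gene is unknown and no counting error can be given. A pair of libraries stood apart from the rest of their line. Over the tested genes, the median size of the log2 difference was 0.29 between *Xu142fl* replicates 1 and 2 and 0.37 between replicates 1 and 3, but 0.17 between replicates 2 and 3. It was 0.27 between Xu142 replicates 1 and 2 and 0.23 between replicates 2 and 3, but 0.14 between replicates 1 and 3. Across the lines, *Xu142fl* replicate 1 and Xu142 replicate 2 differed by 0.29, as little as *Xu142fl* replicates 1 and 2. Values are therefore also given without *Xu142fl* replicate 1 and Xu142 replicate 2. Both MML3 genes, MYB genes that the paper relates to fiber initiation, were read in each line. MML3 of D12 (Gh_D12G1628) had 0.18 to 0.37 FPKM in *Xu142fl* and 51.8 to 61.5 FPKM in Xu142. MML3 of A12 (Gh_A12G1503) had 6.96 to 8.34 FPKM in *Xu142fl* and 35.25 to 44.4 FPKM in Xu142. The study had listed both as lower in the mutant on these same libraries, so their direction is no independent check of the lines. Gh_A12G1503 was expressed in every *Xu142fl* library, and neither gene is used here as a marker of fiber initials. No marker of the ovule as a whole was used, so the tissue itself was not checked.

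The pectinesterase gene was expressed in all 6 libraries. Gh_A10G1502 had 12.6, 9.78 and 7.88 FPKM in *Xu142fl* replicates 1 to 3, against 32.6, 19.4 and 27.9 FPKM in Xu142 replicates 1 to 3. Every *Xu142fl* library lay below every Xu142 library. Among the 56395 genes tested, 19.5% had no overlap between lines with the lower values in *Xu142fl*, so the absence of overlap is common in this comparison, and nothing is read from it for a gene that was chosen on it. The lowest Xu142 library (replicate 2) was 1.54 times the highest *Xu142fl* library (replicate 1), and the highest Xu142 library (replicate 1) was 4.13 times the lowest *Xu142fl* library (replicate 3). The libraries nearest to the other line were thus both of those that stood apart.

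**Figure D1:**
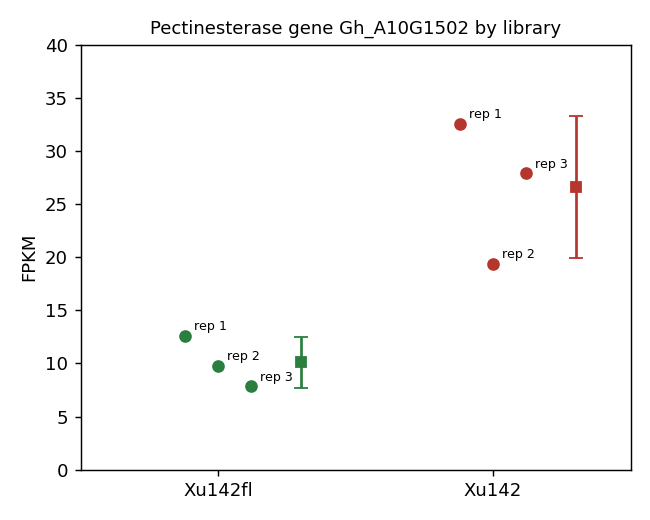
FPKM of the pectinesterase gene Gh_A10G1502 in each library (circles, labelled by replicate), with the mean and SD of each line (squares with bars). The *Xu142fl* libraries lie between 7.88 and 12.6 FPKM and the Xu142 libraries between 19.4 and 32.6 FPKM.

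The mean was 10.1 ± 2.37 FPKM (SD, n = 3) in *Xu142fl* and 26.6 ± 6.68 FPKM in Xu142, so the level in the mutant was 0.379 of that in the wild type. On the scale of log2(FPKM + 0.1), the difference between *Xu142fl* and Xu142 was -1.38 with a standard error of 0.24 from limma, a linear model with a shared estimate of the spread. Without both libraries that stood apart, the means were 8.83 FPKM in *Xu142fl* and 30.2 FPKM in Xu142, and the log2 difference was -1.77 with a standard error of 0.14. When libraries were left out one at a time, it ranged from -1.60 without Xu142 replicate 2 to -1.22 without *Xu142fl* replicate 3. In all of these fits it stayed beyond 2-fold, which is a log2 difference of -1. Leaving out *Xu142fl* replicate 1, Xu142 replicate 2 or both could only enlarge the decrease, since they held the values nearest to the other line.

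**Figure D2:**
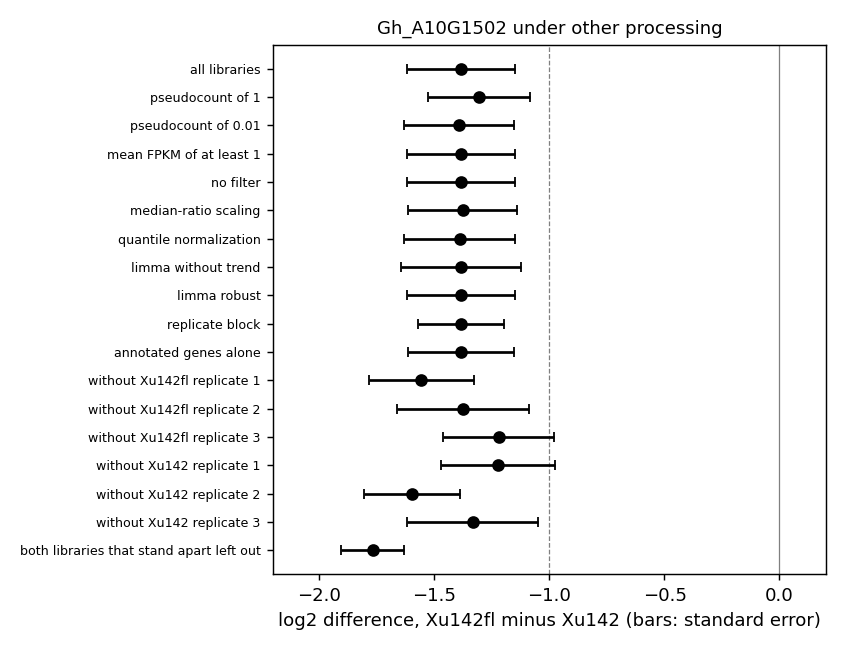
Log2 difference of Gh_A10G1502, *Xu142fl* minus Xu142 (points), with its limma standard error (bars), with all libraries and under each other processing. The dashed line marks a 2-fold decrease, and the values run from -1.77 to -1.22.

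The gene ranked above most listed genes in each library. Its FPKM exceeded that of 77.2%, 70.3% and 65.2% of the listed genes in *Xu142fl* replicates 1 to 3, and of 92.0%, 85.3% and 90.3% in Xu142 replicates 1 to 3. In every Xu142 library it thus ranked above its place in any *Xu142fl* library. The median log2 difference of all tested genes was 0.01, and 2263 of them had a lower log2 difference than this gene. Among the 15900 other genes with a mean between 9.18 and 36.7 FPKM, which is from 0.5 to 2 times that of the pectinesterase gene, the median log2 difference was 0.04, and 268 lay lower.

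Replicates of the pectinesterase gene differed more than those of most genes at this level. The SD of its log2 values was 0.34 in *Xu142fl* and 0.38 in Xu142. For the genes of like level the median SD was 0.17 in *Xu142fl* and 0.12 in Xu142, and 84.2% of them in *Xu142fl* and 95.3% in Xu142 had a smaller SD than this gene. The highest library was 1.60 times the lowest in *Xu142fl* and 1.68 times the lowest in Xu142. In *Xu142fl* the SD was 0.22 without replicate 1, 0.47 without replicate 2 and 0.26 without replicate 3. Its fall was thus not particular to the library that stood apart. In Xu142 the SD was 0.16 without replicate 2, against 0.37 without replicate 1 and 0.53 without replicate 3.

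In the libraries that stood apart the gene deviated in opposite directions. Relative to the mean of its line on the log2 scale, *Xu142fl* replicate 1 was at 0.34 and Xu142 replicate 2 at -0.42. In 72.0% of the tested genes both libraries deviated from their line with the same sign, and 15.1% showed the pattern of this gene, with *Xu142fl* replicate 1 above and Xu142 replicate 2 below the mean of its line. Among genes without overlap that were lower in *Xu142fl*, 1690 of 10986 (15.4%) had, like the pectinesterase gene, their highest *Xu142fl* value in replicate 1 and their lowest Xu142 value in replicate 2. The share of -3 and -1 DPA ovules in each library was not stated, and its part in this spread was not tested.

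The pectinesterase gene was set beside 4 EXPA4 and 3 EXPA8 genes, which the study likewise picked as lower in the mutant on these libraries, so the shared direction is not a result. The study picked further expansin genes, another EXPA4 gene among them, which were not used here, and all counts below cover these 7 genes alone. EXPA4 and EXPA8 are members of the alpha-expansin family. In *Xu142fl*, with 10.1 ± 2.37 FPKM, the pectinesterase gene differed by less than the spread between replicates from the EXPA4 genes Gh_A04G0707 (11.04 ± 5.23 FPKM) and Gh_A07G0902 (9.97 ± 0.119 FPKM). In Xu142, with 26.6 ± 6.68 FPKM, it again differed by less than its own SD from Gh_A04G0707 (27.8 ± 5.45 FPKM) and Gh_A07G0902 (30.4 ± 1.45 FPKM). The EXPA4 genes Gh_A09G1454 and Gh_D09G1463 had higher FPKM than the pectinesterase gene in every library of both lines. The EXPA8 genes Gh_D10G1861 and Gh_D04G1924 had lower FPKM than it in every library, while Gh_A05G3493 had lower FPKM in all libraries but Xu142 replicate 2, with 26.1 FPKM against 19.4 FPKM of the pectinesterase gene.

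The log2 difference between *Xu142fl* and Xu142 of the pectinesterase gene (-1.38, standard error 0.24) lay within those of the 4 EXPA4 genes, which were -1.60 for Gh_A07G0902, -1.23 for Gh_A09G1454, -1.53 for Gh_D09G1463 and -1.40 for Gh_A04G0707, with standard errors from 0.08 to 0.31. Among the EXPA8 genes, Gh_A05G3493 had a larger decrease, at -2.81 (standard error 0.36), and Gh_D10G1861 and Gh_D04G1924 were at -1.08 and -1.15 (standard errors 0.33 and 0.42). The log2 ratio of the pectinesterase gene to the mean of all 7 expansin genes was 0.30 ± 0.13 (SD, n = 3) in *Xu142fl* and 0.14 ± 0.69 in Xu142. The difference between lines, 0.16, was smaller than the spread between the Xu142 libraries and turned to -0.22 when Xu142 replicate 2 was left out.

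Within Xu142, the pectinesterase gene and most of these expansin genes ran in opposite orders over the same 3 libraries. The pectinesterase gene was highest in replicate 1 and lowest in replicate 2. Gh_A05G3493 (EXPA8) had 10.9, 26.1 and 15.3 FPKM in the same libraries. It was thus lowest in replicate 1 and highest in replicate 2. Gh_D09G1463 (EXPA4) had 107.6, 148.3 and 121.8 FPKM, in the same order as Gh_A05G3493. Of the 7 expansin genes, 5 had this reverse order, which comprised all 3 EXPA8 genes and the EXPA4 genes Gh_D09G1463 and Gh_A04G0707, and 0 had the order of the pectinesterase gene. Over all tested genes, 27.0% had the Xu142 order of the pectinesterase gene and 18.0% the reverse order, and among the other genes called lower in *Xu142fl* (limma adjusted p of at most 0.05 and at least 2-fold) the shares were 37.1% and 15.9%. These orders rest on single libraries and were not tested.

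The log2 ratio to the mean of the EXPA8 genes restates this, since it is formed from the same values. It was 2.45, 0.60 and 1.79 in Xu142 replicates 1 to 3, which is a spread of 0.94 (SD), against 1.69, 2.13 and 1.92 in *Xu142fl* replicates 1 to 3, with an SD of 0.22. To the mean of the 4 EXPA4 genes, the ratio was -0.76, -0.83 and -1.12 in *Xu142fl* and -0.53, -1.52 and -0.83 in Xu142. In *Xu142fl* the orders were more alike. Replicate 1 was the highest *Xu142fl* library for the pectinesterase gene and for 6 of the 7 expansin genes. The full order of the pectinesterase gene, from replicate 1 over 2 to 3, was shown by 4 of them and by 22.7% of all tested genes. Among these 4, Gh_A07G0902 was nearly level, with 10.07, 10.01 and 9.84 FPKM. The share of all tested genes with replicate 1 highest was not computed, and these orders were not tested.

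**Figure D3:**
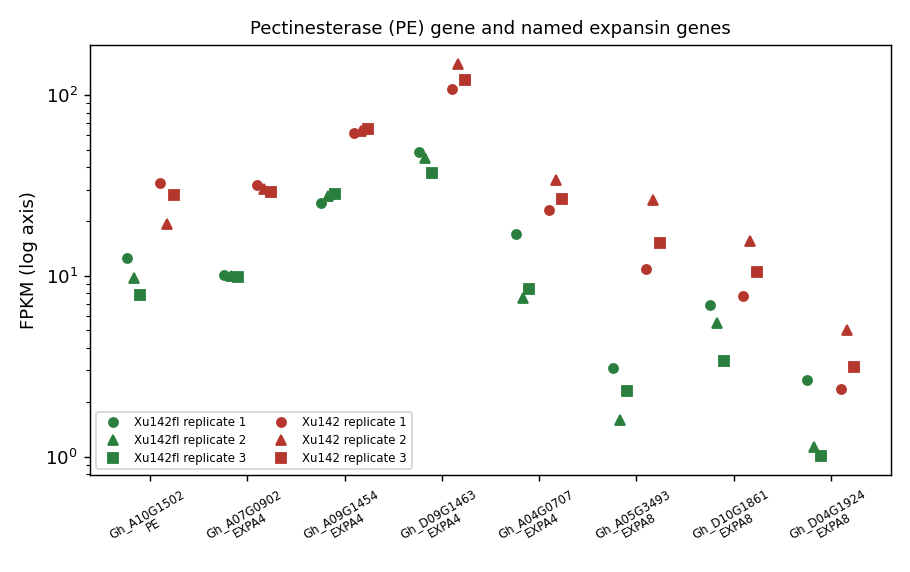
FPKM on a log axis of the pectinesterase (PE) gene and 7 expansin genes in each *Xu142fl* library (green) and each Xu142 library (red), with 1 symbol shape for each replicate number. Xu142 replicate 2 (red triangles) is the lowest Xu142 library for the pectinesterase gene, at 19.4 FPKM, and the highest for 5 of the 7 expansin genes.

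Genes were also ranked by how like their pattern was to that of the pectinesterase gene. The measure was the root mean square difference of the log2 values of the 6 libraries, after each gene had been centred on its own mean, for the 45563 other genes that averaged 1 FPKM or more. The most like was Gh_D09G1450 (root mean square difference 0.10), with 3.95, 3.46 and 2.83 FPKM in *Xu142fl* replicates 1 to 3 and 10.35, 7.41 and 9.16 FPKM in Xu142 replicates 1 to 3. The next was Gh_A11G0352 (0.12), with 0.70, 0.54 and 0.44 FPKM in *Xu142fl* and 1.91, 1.43 and 1.66 FPKM in Xu142. It reached the mean of 1 FPKM through its Xu142 values alone. Both genes were picked for their likeness over these same libraries, so their shared order of libraries follows from the choice. They were not singular, since 79 genes had a difference under 0.2. The deposited table pairs neither ID with a name. Of the 7 expansin genes, the nearest was Gh_A07G0902 with a difference of 0.30, at rank 526. The other EXPA4 genes were at rank 923 (Gh_A09G1454), 1264 (Gh_D09G1463) and 2522 (Gh_A04G0707), and the EXPA8 genes had differences from 0.54 to 0.95.

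The genes next to Gh_A10G1502 in ID number were examined because their choice uses no expression value. ID numbers were taken as an order along the chromosome, and no coordinates were analysed. A call again required a limma p of at most 0.05 after Benjamini-Hochberg adjustment and a change of at least 2-fold. By this rule 4.47% of the 56395 tested genes were called lower and 1.67% higher in *Xu142fl*. Of the 20 ID numbers within 10 of that of the pectinesterase gene, 15 were listed and 13 tested. Limma called 1 of these 13 lower and 0 higher, and the median log2 difference was -0.08. An unadjusted limma p under 0.05 was found for 2 of them, both with lower values in *Xu142fl*. The share of all tested genes under that limit was not computed, so this count is not read as an excess. Of these 2, the gene that was not called had at most 0.99 FPKM in any library. It passed the filter of a mean of 0.1 FPKM through its Xu142 values alone. At a stricter adjusted p of 0.001, which called 0.555% of all tested genes lower and 0.195% higher, limma called 0 of the 13. With 13 genes, a count of 1 cannot be set apart from the share over all genes.

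Neither of the genes on either side was called. With 3 libraries a line, the lack of a call does not show a lack of change. Gh_A10G1501 was listed at 0.74, 0 and 0 FPKM in *Xu142fl* and at 0, 0 and 0.49 FPKM in Xu142. These values are too low to show whether it followed the pectinesterase gene. Gh_A10G1503 had 15.8, 10.02 and 7.51 FPKM in *Xu142fl* replicates 1 to 3 and 12.3, 16.6 and 13.3 FPKM in Xu142 replicates 1 to 3. Its lines overlapped, with a log2 difference of -0.39 (standard error 0.27, limma adjusted p = 0.37). In *Xu142fl* it had the library order of the pectinesterase gene, and in Xu142 the reverse order. The called gene was Gh_A10G1512, which is named because it was the only one, after its values had been seen. It had 0.63, 0 and 0.34 FPKM in *Xu142fl* and 5.72, 2.03 and 4.93 FPKM in Xu142, a log2 difference of -3.64 (standard error 0.76, limma adjusted p = 0.024), and carries no name in the deposited table. The call was lost without *Xu142fl* replicate 3, Xu142 replicate 1 or Xu142 replicate 3. Gh_A10G1512 and the pectinesterase gene shared the order of the Xu142 libraries, with replicate 2 lowest. Of all genes called lower, the pectinesterase gene left out, 37.1% had this order. In *Xu142fl* their orders differed, since Gh_A10G1512 was lowest in replicate 2 and the pectinesterase gene in replicate 3.

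**Figure D4:**
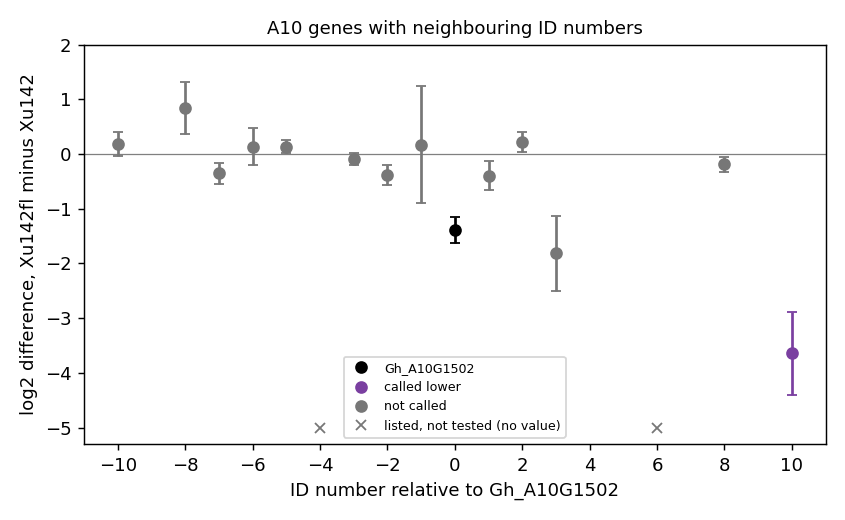
Log2 difference, *Xu142fl* minus Xu142 (points), with its limma standard error (bars), of the tested A10 genes by ID number relative to Gh_A10G1502. Crosses at the lower edge mark 2 listed genes that were not tested, since they averaged under 0.1 FPKM, and have no log2 difference. Gh_A10G1502 lies at -1.38 and the called Gh_A10G1512 at -3.64, and the remaining 12 tested genes were not called.

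Over the whole of chromosome A10, 64 of the 1741 other tested genes (3.68%) were called lower and 22 (1.26%) higher in *Xu142fl*, beside 4.47% and 1.67% over all genes, and their median log2 difference was 0.02. No test of this set was made. With libraries left out, the A10 counts moved in the same direction as those over all genes. Genes called lower went from 64 to 42 on A10 and from 2523 to 1410 over all genes without Xu142 replicate 1. Without Xu142 replicate 3 they were 41 and 1375. Genes called higher, 22 on A10 and 940 over all genes with all libraries, were 39 and 1600 without *Xu142fl* replicate 1. They were 13 and 455 without *Xu142fl* replicate 2, 12 and 565 without Xu142 replicate 1, and 13 and 561 without Xu142 replicate 3. Reads that fit more than 1 gene are split by RSEM, so a near-identical copy of the pectinesterase gene in the D subgenome could share reads with it. Such a copy was not identified here, since the deposited table gives no gene names.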

How the data were processed

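Ovule RNA was sequenced in 3 libraries of *Xu142fl* and 3 of Xu142, each mixed from -3 and -1 DPA. After filtering, the authors placed reads on known genes of the TM-1 genome by Bowtie2, built new transcripts by HISAT2 and StringTie, and quantified both by RSEM. The submitters' processing notes name HISAT2 2.1.0, while the paper gives another version of it. The authors deposited FPKM, which are scaled for transcript length and mapped fragments, with 2 decimals, no read counts and no stated scaling between libraries. Columns were matched to libraries by name, and 0 other columns of values were present. In no pair of libraries were more than 2.06% of the values above 0 identical, so all 6 counted as separate.

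The analysis used log2(FPKM + 0.1) for the 56395 genes that averaged 0.1 FPKM or more. A difference on this scale understates the change of low genes. Limma 3.58.1 in R 4.3.3 was fitted across all of these genes with an intensity trend, and p-values were adjusted by Benjamini-Hochberg. The study used DEGseq on reads with a limit of 0.001, which was run here as an alternative limit. The step was tested on simulated data. Python 3.11.15 with pandas 2.3.3, numpy 2.4.6 and matplotlib 3.10.9 was used. P-values measure only the spread between these libraries.

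The gene, the lists and the tests were chosen with earlier results of these data known. Genes named are the pectinesterase gene, 4 EXPA4 and 3 EXPA8 genes, both MML3 genes, the 2 genes of most like pattern and the nearest listed ID on either side. Gh_A10G1512 is named outside this rule, after its values had been seen. Against the RefSeq gene table (assembly Gossypium_hirsutum_v2.1), 0 IDs matched, and therefore no position, sequence or further pectin gene is given. Alternatives were other pseudocounts, filters, scalings, variance models, limits, windows, a replicate block and libraries left out.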

Additional observations from a re-analysis of the deposited data

How the results depend on the processing

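The log2 difference of the pectinesterase gene kept its direction and stayed beyond 2-fold in all 17 alternatives. Those that changed only the filter, the set of genes, the variance model or the replicate block could not move the estimate from -1.38. They bear on its standard error alone. The log2 difference ranged from -1.60 to -1.22 with 1 library left out, and was -1.77 without both libraries that stood apart. Leaving out either or both of those could only enlarge the decrease, since they held the values nearest to the other line. With 1 library left out, the SD of the pectinesterase gene on the log2 scale ranged from 0.22 to 0.47 in *Xu142fl* and from 0.16 to 0.53 in Xu142. The replicate numbers were not taken as a pairing. The deviations of same-numbered libraries correlated at -0.25, -0.23 and 0.14. These values cannot decide whether the samples were paired, since the deviations within a line depend on each other and on the libraries that stood apart. With a replicate block the log2 difference stayed at -1.38 and its standard error was 0.19, and the block called 1543 genes lower and 505 higher, and 13 A10 genes higher.

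With all libraries, 2523 genes were called lower and 940 higher, 64 and 22 of them other A10 genes, and 1 and 0 near the pectinesterase gene. A pseudocount of 1 gave 1430 and 485 over all genes and 39 and 11 on A10, and a pseudocount of 0.01 left 0 lower near the gene. An adjusted p of at most 0.001 gave 313 and 110 over all genes, 10 and 5 on A10, and 0 lower near the gene. With 1 library left out, the counts ranged from 1375 to 3009 lower and 455 to 1600 higher over all genes, from 41 to 78 lower and 12 to 39 higher on A10, and from 0 to 1 lower near the gene. The counts over all genes were 1410 and 565 without Xu142 replicate 1, 1375 and 561 without Xu142 replicate 3, and 1517 and 455 without *Xu142fl* replicate 2, and 1600 and 626 genes were called higher without *Xu142fl* replicates 1 and 3, each left out alone. Without both libraries that stood apart, 1488 genes were called higher, 37 of them on A10, and 2 were called lower near the gene. Among ID numbers within 5, 0 were called lower and 0 higher, and within 25, 1 was called lower and 1 higher. Over all genes 4.47% were called lower and 1.67% higher. The number of genes tested in these windows is not given, so nothing is read from their counts. The median log2 difference of all genes was 0.05 after quantile normalization and 0.01 with median-ratio scaling or none. Depth per gene is unknown, and 3 libraries a line limit every spread given here.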
